A study of Mus musculus with 96 samples.

Results

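Transcripts of 10 mouse genes that act in the G2 phase of the cell cycle and in mitosis were followed through 96 single cells of the embryonic haematopoietic stem cell (HSC) lineage. The genes were taken by name from the count table: Plk1, Aurka, Aurkb, Bub1, Ube2c, Ccnb1, Cdc20, Birc5, Top2a and Mki67, which are 10 of its 19836 gene symbols. No measured value entered the choice of rows, although the set was proposed with earlier results of these data known. All embryos were of the C57BL/6 strain, and the labels name no mutation or treatment. Pre-HSCs, the precursors of HSCs, came from E11.5 embryos and were sorted as Ter119-CD11b-CD144+c-kit+EPCR+, with 48 cells from the aorta-gonad-mesonephros (AGM) region and 16 from the yolk sac. Fetal liver gave 16 HSCs at E12.5, sorted as Ter119-Sca-1+c-kit+EPCR+, and 16 HSCs at E14.5, sorted as Ter119-Sca-1+c-kit+CD48-CD150+. Tissue, age and gate thus all differ between pre-HSCs and liver HSCs, and age and gate differ between the liver groups. No animal or litter is named in the labels, and each group counts as 1 sample. Group differences have no replicate check, no test was made, and intervals cover counting error only.

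A dividing cell copies its DNA in S phase, prepares in G2 and separates its chromosomes in mitosis, and many genes needed for that last step are transcribed only late in the cycle. Cyclin B1, the product of Ccnb1, activates the kinase CDK1 to start mitosis. The kinases encoded by Plk1 and Aurka mature the centrosomes and build the spindle, while Aurkb and Birc5 encode partners in the chromosomal passenger complex, which corrects faulty spindle attachments. Bub1 is a kinase of the spindle checkpoint. Cdc20 and Ube2c then act with the anaphase-promoting complex, a ubiquitin ligase that has cyclin B1 degraded so that the cell can divide. Top2a untangles the copied DNA, and Mki67 encodes Ki-67, a coat of mitotic chromosomes that is widely used as a marker of cycling cells. Fetal liver is known as the tissue that holds HSCs before they move to bone marrow, and fetal HSCs are known to cycle more than adult ones.

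Promoters of such genes are known for CCAAT boxes, which the factor NF-Y binds, and for a late-cycle element called CHR with the letters TTTGAA or TTTAAA, which is bound by the DREAM and MuvB complexes. Both were searched on either strand, CCAAT also as ATTGG and TTTGAA also as TTCAAA, while TTTAAA reads alike on both strands. No match of one motif overlaps a match of another in the stretches printed. The window ran from 250 bases before to 50 bases after each start in RefSeq's promoter table (GRCm38.p6, the build that mm10 names). Of the 10 genes, 9 matched an entry there, and Aurkb did not. CCAAT was found in 8 of these 9 windows and in 37.4% of all 32851 promoters, and TTTGAA or TTTAAA in 8 of 9 against 27.6%. Both kinds stood together in 7 of 9 windows, against 10.7% of all promoters. These 120-base stretches of some of the genes are shown as examples, printed 5′ to 3′ on the gene's own strand. Capitals mark each CCAAT or CHR match.
Plk1 (chr7:122159315-122159434, plus strand): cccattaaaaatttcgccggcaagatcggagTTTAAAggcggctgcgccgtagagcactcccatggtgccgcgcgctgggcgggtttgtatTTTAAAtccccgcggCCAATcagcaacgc
Aurka (chr2:172370571-172370690, minus strand): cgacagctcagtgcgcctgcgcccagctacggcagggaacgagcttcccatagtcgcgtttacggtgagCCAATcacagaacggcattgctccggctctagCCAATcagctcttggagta
Cdc20 (chr4:118437344-118437463, minus strand): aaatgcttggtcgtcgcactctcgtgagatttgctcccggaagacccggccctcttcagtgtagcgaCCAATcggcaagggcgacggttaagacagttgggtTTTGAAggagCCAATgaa
Top2a (chr11:99024190-99024309, minus strand): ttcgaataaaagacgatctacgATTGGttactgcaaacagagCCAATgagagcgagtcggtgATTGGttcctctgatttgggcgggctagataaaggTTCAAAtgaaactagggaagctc
Birc5 (chr11:117849117-117849236, plus strand): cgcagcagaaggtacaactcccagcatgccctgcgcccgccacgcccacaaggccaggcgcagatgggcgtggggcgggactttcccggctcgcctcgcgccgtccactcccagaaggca

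In the Plk1 stretch a TTTAAA lay 29 bases before the start with a CCAAT 14 bases before it. Cdc20 had TTTGAA 18 bases before its start between CCAAT matches 53 and 8 bases before it. Top2a had the CHR letters 23 bases before its start and 6 CCAAT matches in its whole window. Birc5 was the only one of the 9 without CCAAT, and its single TTTAAA lay 220 bases before the start, outside the printed stretch. Bub1 had CCAAT on each strand and neither CHR spelling. A match is a description of letters and was not tied to any binding here.

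Cells had between 250235 and 1926882 reads, with medians of 1198310.5 and 1446148 for AGM and yolk sac and of 1164184 and 1313150.5 for E12.5 and E14.5 liver. Median genes detected were 5522.5, 5349.5, 4036 and 4839, and after every cell was thinned to 200000 reads they were 5053.5, 4869.5, 3573 and 4328. The list of 10 haematopoietic markers had a read of every gene in each group, with cell medians between 2115 and 2796 CPM, the count of a gene per 1e6 reads. Of the 10 endothelial markers, Kdr had 0 reads at E12.5, and Cldn5 and Sox17 had 0 at E14.5. Reads of this list were still found in liver, where E14.5 cells had a median sum of 1013 CPM and E12.5 cells one of 1434 CPM. The yolk sac median was 1151.5 CPM and that of AGM 1628 CPM. With reads summed over each group, 6 of the 10 markers were at least 2-fold lower than in AGM in every other group. E12.5 cell 8 went against its label: it had 1011 genes, 3.996 CPM of the haematopoietic list, no read of Kit and 23686 CPM of the macrophage list, with reads of 6 of its 9 genes. Among E14.5 cells, numbers 3, 8, 13 and 16 had 14.55%, 12.9%, 4.41% and 21.95% of their reads in 4 adult globin genes. Over 9000 genes were detected in 8 cells, of which 4 were from AGM, 3 from yolk sac and 1 from E12.5 liver. AGM cells 3 and 36 had 10857 and 7256 CPM of the endothelial list, beside an AGM median of 1628 CPM. They had only 205.7 and 153.7 CPM of the haematopoietic list, and both had reads of all 10 mitotic genes. Results below are also given without the cells named above where they moved a value, but AGM cells 3 and 36 were not left out together.

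Reads of most of the genes, defined as at least 6 of the 10, were found in a smaller share of E12.5 liver HSCs than of any other group, and those E12.5 cells carried the highest levels. In AGM 30 of 48 cells, or 62.5% (95% interval 47.4% to 76.0%), had reads of most genes, and in yolk sac 14 of 16, or 87.5% (61.7% to 98.4%). The share was 43.75% (19.8% to 70.1%), or 7 of 16 cells, at E12.5 and 68.75% (41.3% to 89.0%), or 11 of 16, at E14.5. All 4 intervals overlap one another, and no difference between shares was tested. Shares after thinning to 200000 reads were 58.3%, 75%, 43.75% and 68.75%. With 10 CPM required in place of 1 read they were 56.25%, 68.75%, 37.5% and 68.75%. Omitting cell 8 put the E12.5 share at 46.7%, and without the 4 globin-rich cells the E14.5 share was 66.7%. A lower share at E12.5 than in AGM was common outside the set. Gene by gene, it was seen in 72.9% of all genes with a read in at least 3 cells of each group. Of those genes, 67.1% had a higher mean level in the cells with a read.

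Among the cells with most genes, the 10 genes together made up 3089 CPM in AGM (3071 to 3107) and 3046 CPM in yolk sac (3022 to 3070). The same sum was 7472 CPM at E12.5 (7420 to 7525) and 5193 CPM at E14.5 (5157 to 5230). These intervals hold only the error of counting reads, and the spread from cell to cell was far wider. The lowest, median and highest of these cells were 147.5, 2348 and 7720 CPM in AGM, and 264, 3099 and 6153 CPM in yolk sac. At E12.5 they were 3067, 8289 and 10166 CPM, and at E14.5 they were 1357, 4510 and 11183 CPM. The E14.5 cell at 11183 CPM was globin-rich cell 16, and the highest E14.5 cell not rich in globin had 9449 CPM. The ranges overlap between all groups, but the E12.5 median lay above the highest AGM and yolk sac cells. Leaving out any 1 cell gave sums of 2908 to 3229 CPM in AGM, 2837 to 3333 in yolk sac, 6875 to 8053 at E12.5 and 4661 to 5665 at E14.5.

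**Figure D1:**
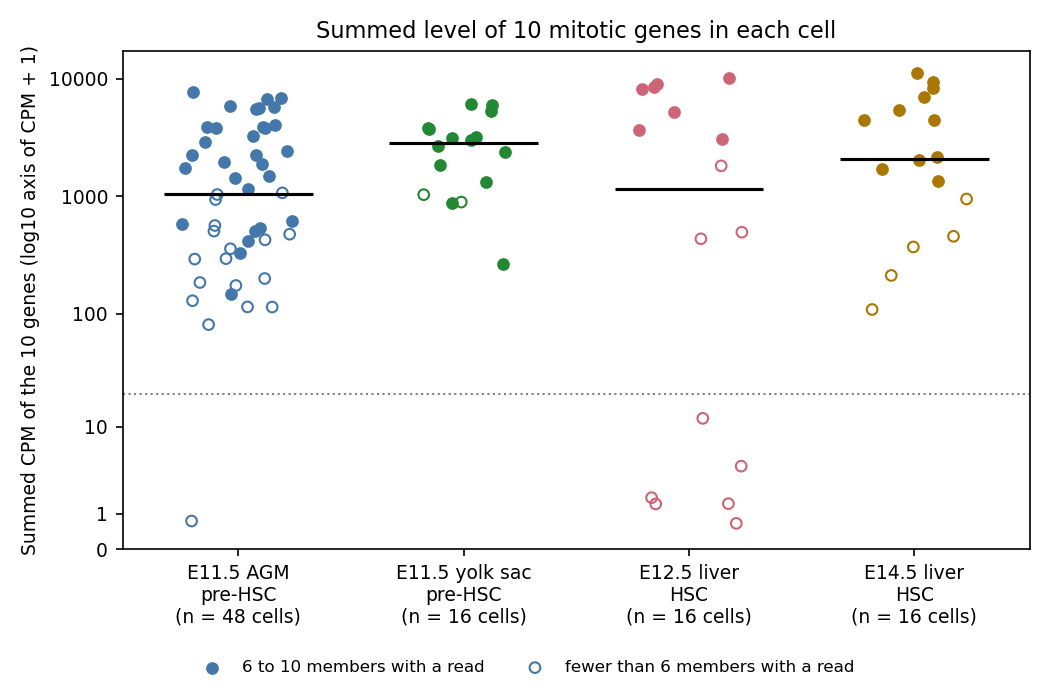
Summed CPM of the 10 mitotic genes in each cell, on a log10 axis of CPM + 1, for the 4 groups. Filled points had reads of 6 to 10 genes and open points of fewer, bars are medians over all cells of a group, and the dotted line marks 20 CPM. At E12.5, 6 of 16 points lie below that line and 7 lie at 3067 CPM or higher.

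The E12.5 cells split more sharply than the AGM cells. Of the 16 E12.5 cells, 6 had under 20 CPM of all 10 genes together, or 37.5% (15.2% to 64.6%), against 1 of 48 AGM cells, or 2.08% (0.0527% to 11.1%). No cell of yolk sac or E14.5 liver was that low, where the exact interval for 0 of 16 reaches up to 20.6%. The 20 CPM limit was chosen after the values were seen. The 6 cells held 1 to 5 reads of these genes each, out of 250235 to 1717252 reads. At the other end, 5 of 16 E12.5 cells had over 5000 CPM, as did 7 of 48 from AGM, 3 of 16 from yolk sac and 5 of 16 at E14.5. Between 20 and 1000 CPM there were 22 of 48 AGM cells and 2 of 16 E12.5 cells. The 9 E12.5 cells without most genes reached 1823 CPM at most, below the lowest of the 7 with most genes at 3067 CPM. In AGM the ranges of the 30 and the other 18 cells overlapped, since the latter reached 1074 CPM. They also overlapped in yolk sac, where cells without most genes reached 1036 CPM and the lowest of the others had 264 CPM. At E14.5 they did not overlap, as at E12.5. The E14.5 cells without most genes reached 951.6 CPM, and the lowest of the others had 1357 CPM. Both measures use the same reads, so their link is partly built in.

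Of the 6 low E12.5 cells, cell 8 had few genes and the macrophage markers given above. The other 5 had 3203 to 4989 genes, against 3995 to 10509 in the 7 cells with most genes. Their haematopoietic list ran from 1968 to 4655 CPM, against 1285 to 4173 CPM in those 7, and their macrophage list was at most 202.2 CPM, so these ranges overlap. In every group the cells with most genes had more genes detected, with medians of 6108.5 against 4899 in AGM, 5635 against 3178.5 in yolk sac, 5477 against 3612 at E12.5 and 5565 against 4097 at E14.5. The part of genes detected in these shares was not tested beyond the thinning. Cells at the limit were few: 4 AGM cells and 1 E14.5 cell had exactly 6 genes, while 6 AGM, 1 E12.5 and 1 E14.5 cells had exactly 5.

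**Figure D2:**
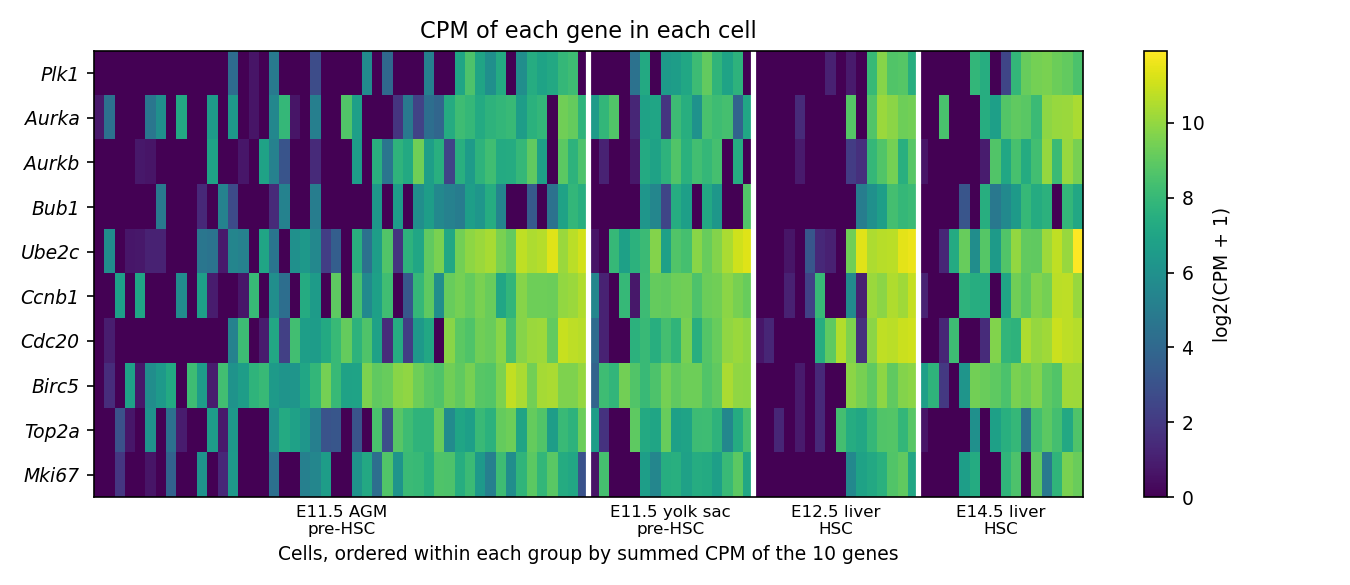
CPM of each of the 10 genes in each of the 96 cells, as log2(CPM + 1), with cells ordered in each group by their summed CPM. In AGM the colours grade from left to right and Birc5 reaches far to the left, while most E12.5 cells are dark for most genes or bright for nearly all of them.

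The kinases were described first. Plk1 was the gene with a read in the fewest AGM cells, 18 of 48 or 37.5% (23.95% to 52.6%), and yolk sac had 62.5%. The liver shares were 43.75% at E12.5 and 62.5% at E14.5. In cells with a read its median was 91.2 CPM for AGM and 141.7 CPM for yolk sac, against 263 and 453 CPM at E12.5 and E14.5, and its highest cells had 386, 530, 850 and 729 CPM in the same order. Pooled over all cells of a group, which sums reads before scaling, Plk1 was at 44.1 CPM (42.5 to 45.8), 126 (121 to 131), 186.1 (180.04 to 192.3) and 280 CPM (273 to 288). E12.5 cell 4 alone held 39.5% of the E12.5 reads, and the pooled value without it was 123 CPM. Every group had a lowest cell at 0 CPM, so the ranges of single cells overlap throughout.

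Reads of Aurka were present in 66.7% of AGM pre-HSCs (51.6% to 79.6%) and 93.75% of yolk sac pre-HSCs (69.8% to 99.8%). Liver HSCs had them in 43.75% of cells at E12.5 (19.8% to 70.1%) and 68.75% at E14.5 (41.3% to 89.0%). Among cells with a read the median was 102 CPM for AGM and 134 CPM for yolk sac, against 623 and 466 CPM at E12.5 and E14.5. Its highest cells had 643, 416, 1111 and 1339 CPM, the last in globin-rich E14.5 cell 16. Pooled Aurka was 106, 161.9, 362 and 417 CPM in that order of groups. E12.5 and AGM thus differed in opposite directions by share and by level. Its partner in name, Aurkb, had a read in 60.4%, 68.75%, 50% and 68.75% of cells, with pooled values of 110, 154.8, 178.7 and 284 CPM. Reads of Aurkb at E12.5 came to 38.3% from cell 2, and without it the pooled value was 122 CPM.

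Bub1 had 31.6 CPM pooled in AGM, a read in 47.9% of cells and a highest cell of 237 CPM. Yolk sac had 67.8 CPM with reads in 50% of cells, and the liver groups had 95.9 CPM with 37.5% at E12.5 and 86.5 CPM with 62.5% at E14.5. Yolk sac cell 13 held 34.1% of that group's Bub1 reads, and the value without it was 47.3 CPM. Levels of different genes were compared only roughly, per kilobase of all annotated exons of a gene. On that scale Bub1 was the lowest of the 10 in AGM at 7.26 CPM, with Plk1 at 20.1, Aurkb at 37.4 and Aurka at 41.9.

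Cdc20 and Ube2c led the set on that scale in every group, with 199.8 and 170.7 CPM per kilobase in AGM, 202.3 and 253 in yolk sac, 494 and 426 at E12.5, and 374 and 266 at E14.5. Cdc20 was detected in 70.8% of AGM and 87.5% of yolk sac pre-HSCs, and in 75% of the HSCs at both liver stages. Its median in cells with a read was 305, 299, 852 and 930 CPM, and its highest cells had 1915, 1107, 2130 and 2020 CPM. Ube2c had reads in 83.3%, 93.75%, 68.75% and 87.5% of cells. Its median in those cells was 130, 407, 1388 and 519 CPM, and the highest single value of any of the genes was 3877 CPM of Ube2c in E14.5 cell 16, one of the globin-rich cells. Pooled Ube2c was 444 CPM for AGM and 658 CPM for yolk sac, against 1107 and 692 CPM at E12.5 and E14.5. Without the richest cell of each liver group, E12.5 cell 3 and E14.5 cell 16, the values were 894 and 524 CPM.

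Ccnb1 was detected in 70.8% of AGM and 93.75% of yolk sac pre-HSCs, and in 62.5% and 75% of liver HSCs at E12.5 and E14.5. Its pooled values were 295, 431, 593 and 524.5 CPM in that order. Its level in cells with a read had a median of 252 CPM in AGM and between 552 and 594 CPM in the other groups. Birc5 was the most widely detected, in 45 of 48 AGM cells (93.75%, 82.8% to 98.7%), 16 of 16 yolk sac cells and 15 of 16 E14.5 cells. At E12.5 it was found in 9 of 16 cells, or 56.25% (29.9% to 80.2%). This difference from AGM was not tested, and 72.9% of all genes also had a lower share at E12.5 than in AGM. Thinned to 200000 reads the shares of Birc5 were 91.7%, 100%, 50% and 87.5%. Pooled Birc5 was nevertheless alike in AGM at 416 CPM (411 to 421) and E12.5 at 419 CPM (410 to 428), against 535 CPM in yolk sac and 529 CPM at E14.5.

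Top2a and Mki67, the longest of the set by exon length, were near the bottom per kilobase, at 16.4 and 10.1 CPM in AGM. Top2a had a read in 77.1%, 87.5%, 68.75% and 68.75% of AGM, yolk sac, E12.5 and E14.5 cells, with 148.2, 202.6, 192.8 and 144.9 CPM pooled. Mki67 had reads in 68.75%, 81.25%, 43.75% and 56.25% of cells and pooled values of 101.7, 132, 135 and 203.3 CPM. At E12.5, 35.5% of Mki67 reads came from cell 13, without which the value was 95.8 CPM. Across the 10 genes the richest cell of a group held 7.97% to 20% of a gene's reads in AGM, and 21.4% to 39.5% at E12.5, where there are 16 cells in place of 48.

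**Figure D3:**
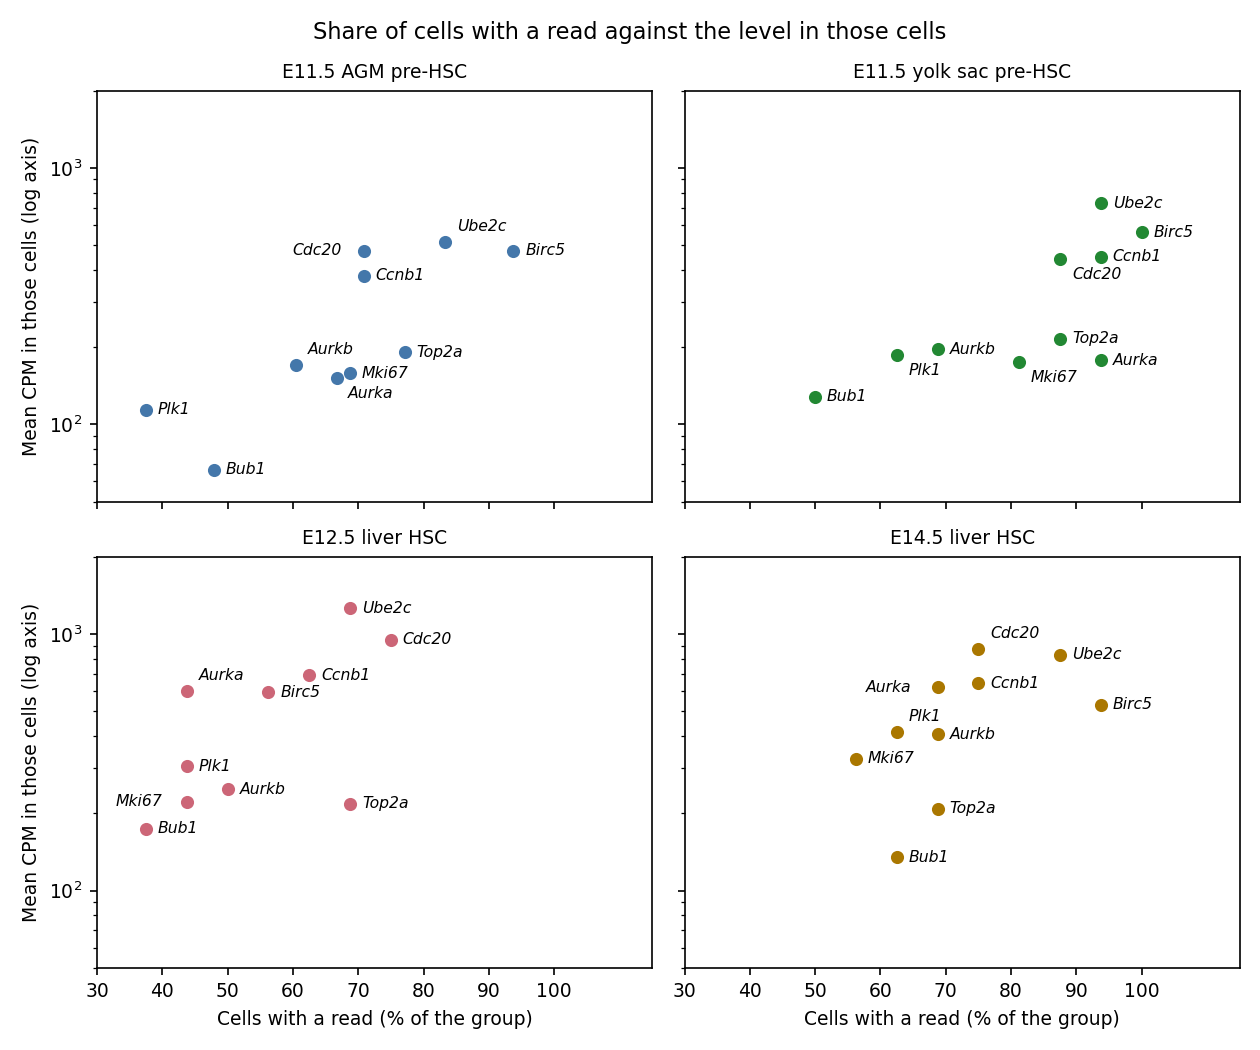
For each gene and group, the percent of cells with a read (x axis) against the mean CPM in those cells (y axis, log scale). The E12.5 points lie to the left of the AGM points for 8 genes and higher for all 10, and Birc5 moves from 93.75% of AGM cells to 56.25% of E12.5 cells.

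Yolk sac pre-HSCs had more of these transcripts than AGM pre-HSCs sorted with the same gate, in a larger share of cells. All 10 genes had a higher pooled CPM in yolk sac, where 38.2% of the 15239 genes with at least 30 reads did, and 2 were at least 2-fold higher, Plk1 and Bub1, against 8.61% of genes. None was at least 2-fold lower, against 21%. Bub1 was under 2-fold without yolk sac cell 13, at a log2 ratio of 0.57. The median log2 ratio of the 10 was 0.52 after adding 1 CPM, beside −0.20 over all genes. Plk1 had the largest at 1.49 and Cdc20 the smallest at 0.02, whose counting bounds of −0.03 to 0.07 include 0 and which was −0.20 without the cells over 9000 genes. Shares of cells with a read were lower in yolk sac for 0 of the 10 genes, against 36% of genes that had a read in at least 3 cells of each group, and so 0 had a higher pooled CPM with a lower share, against 8.31%. After thinning to 200000 reads Bub1 was lower in yolk sac, 43.75% against 45.8%, making 1 of 10 beside 39.2% of all genes, and yolk sac cells had the higher median depth, as given above. Aurka differed most in share, by 27.1 percentage points, and Plk1 by 25 points. In the cells with a read the mean level of 9 of the 10 was higher, against 38.5% of genes, and 0 of 10 reached 2-fold, against 3.46%.

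Compared with AGM, E12.5 liver HSCs had higher pooled levels of all 10 genes, beside 40.5% of all genes, and lower shares of cells with a read for 8 of them. At least 2-fold higher were 6 of 10 genes, beside 15.6% of all genes: Plk1, Aurka, Bub1, Ube2c, Cdc20 and Ccnb1, with log2 ratios of 2.05, 1.76, 1.57, 1.32, 1.30 and 1.01. The median of the 10 was 1.16, beside −0.20 over all genes. Aurkb, the other kinase, had 0.69, or 0.15 without E12.5 cell 2, and Birc5 had 0.01, with counting bounds of −0.04 to 0.06. The median ranged from 0.81 to 1.29 over omissions of 1 cell, and Plk1 was at 1.46 without E12.5 cell 4, a move of over 1.5-fold. Ccnb1 was under 2-fold without E12.5 cell 3, at 0.61. Averaging the cells' own CPM, which gives shallow cells equal weight, put Birc5 at −0.42 and Mki67 at −0.16, so their direction depends on that choice.

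The split into share and level separated the genes. The mean of the cells' CPM equals the share of cells with a read times the mean CPM in those cells. The share was lower at E12.5 for 8 of 10 genes, but so it was for 72.9% of all genes with a read in at least 3 cells of each group, so this count is near the background. The level in cells with a read was higher for 10 of 10 genes, beside 67.1%, and at least 2-fold higher for 4 of 10, beside 21.7%. A higher pooled CPM with a lower share was seen in 8 of 10 genes and in 32.8% of all genes. These 8 include Birc5, Mki67 and Top2a, whose ratios were −0.42, −0.09 and −0.003 when every cell was thinned to 200000 reads. The widest gap between the share ratio and the level ratio was in Aurka: its share was 43.75% against 66.7%, and its mean level in those cells was 598 CPM against 151.5 CPM, 3.95-fold higher. Plk1 and Cdc20 were the exceptions, with shares higher by 6.25 and 4.17 percentage points and levels 2.68-fold and 1.99-fold higher. Those shares rest on single reads, since 2 of the 7 E12.5 cells with Plk1, numbers 5 and 16, held 1 read each. Thinned to 200000 reads, Plk1 had a share of 31.25% at E12.5 against 35.4% in AGM and Cdc20 56.25% against 64.6%, so that all 10 shares were lower at E12.5, beside 72.4% of all genes. With 10 CPM required all 10 were lower too, beside 71.3%. Birc5 was 37.5 percentage points lower in share and 1.25-fold higher in level.

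**Figure D4:**
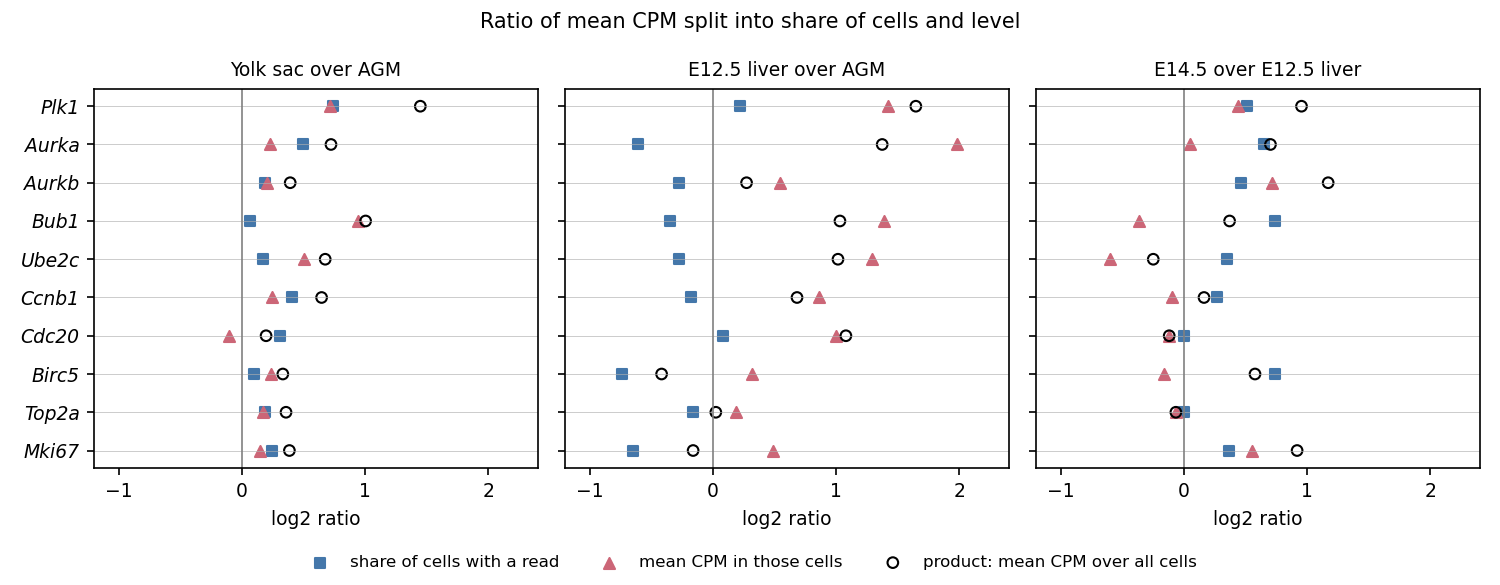
Log2 ratios for each gene in 3 comparisons, split into the share of cells with a read (squares), the mean CPM in those cells (triangles) and their product, the mean CPM over all cells (circles). For E12.5 over AGM the squares lie left of 0 for 8 genes and all triangles lie right of it, while for yolk sac over AGM no square lies left of 0.

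E14.5 liver HSCs also had higher pooled levels than AGM for 9 of 10 genes, beside 39.7% of all genes, and 4 were at least 2-fold higher, beside 15.3%. These were Plk1 at a log2 ratio of 2.64, Aurka at 1.96, Bub1 at 1.42 and Aurkb at 1.36, which are the kinases of the set. Mki67 was just under 2-fold at 0.99, and Top2a was at −0.03, with bounds of −0.11 to 0.05. Aurkb was at 0.97 without E14.5 cell 9, under 2-fold. The median of the 10 was 0.95, beside −0.23 over all genes. Shares were lower at E14.5 for Top2a and Mki67, 2 of 10 genes beside 60.6%, and for Birc5 too after thinning to 200000 reads. In the reads as deposited only Mki67 joined a lower share to a higher pooled CPM, 1 of 10 beside 24.1%. The level in cells with a read was higher for 10 of 10, beside 64.2%, and at least 2-fold higher for 5, beside 17.2%. Aurka was 4.08-fold higher in level, close to its value at E12.5, with a share of 68.75% close to that of AGM. This comparison and the previous one share the AGM cells, so they are not independent.

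Between the liver stages the pooled levels of the set were close, and the shares were higher or equal at E14.5. Most genes outside the set went the same way in share, since only 25.4% of all genes were lower at E14.5. The stages were sorted with different gates, so age and gate cannot be told apart here. No gene reached 2-fold in either direction, beside 18.7% of all genes higher and 18.2% lower at E14.5. The median log2 ratio was 0.03, beside 0 over all genes, and it lay between −0.20 and 0.33 when single cells were left out, so it has no stable sign. Averaging the cells' own CPM gave 0.47. Aurkb was highest at 0.67 and Ube2c lowest at −0.68. Single cells decided the 2-fold limit for 4 genes: Plk1 was at 1.18 without E12.5 cell 4, Aurkb at 1.21 without E12.5 cell 2, Mki67 at 1.08 without E12.5 cell 13, and Ube2c at −1.08 without E14.5 cell 16. The share of cells with a read was lower at E14.5 for 0 of 10 genes, beside 25.4%, equal for Cdc20 and Top2a, and higher for the other 8. Thinned to 200000 reads all 10 shares were higher, and 25.8% of all genes had a lower share. Bub1 and Ccnb1 had pooled ratios of −0.15 and −0.18 that were 0.36 and 0.18 when thinned, so their sign depends on the reads used. The largest difference was in Birc5, at 37.5 percentage points. Mean levels in cells with a read were higher for 4 of 10 genes, beside 41.7%. No gene joined a higher pooled CPM to a lower share, beside 5.27%.

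Cells with reads of few of these genes did not hold the same mixture as cells with reads of most. Both classes were defined by reads of these same genes, so part of this difference is built in. In the 30 AGM cells with most genes, Ube2c took 22.7% of the reads of the set, Birc5 18.8%, Cdc20 17.6% and Ccnb1 13.8%. In the other 18 AGM cells Birc5 took 36.5% and was found in 15 of them, while Ube2c took 4.68% and Plk1, in 1 of 18 cells, 0.0111%. Birc5 took 48.3% in the 2 yolk sac cells without most genes. In the 5 such E14.5 cells Ube2c took most, 36.3% against 17.4% in the E14.5 cells with most genes, with 711 of its reads in globin-rich cell 13, and Birc5 took 26.1%. The 9 such E12.5 cells differed, since Cdc20 took 80.1% there and Birc5 0.0719%. That Cdc20 share came from few cells: E12.5 cell 15 had 1492 CPM of Cdc20 and 331 CPM of Top2a with no read of the other 8 genes, and cell 16 had 494 CPM of Cdc20 with 1 read each of Plk1 and Ube2c. Single-gene cells of this kind were also seen in AGM, where cell 45 had 293 CPM of Birc5 and no read of the rest, and in E14.5 liver, where cell 15 had 212.2 CPM of Birc5 alone.

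The genes' levels and their detection gave different orders of the groups. Over the 45 pairs of genes, Spearman's rho between the CPM of 2 genes across cells had a median of 0.79 at E12.5 (range 0.64 to 0.93, 16 cells) and 0.68 at E14.5 (0.32 to 0.87, 16 cells). In AGM the median was 0.56 (0.26 to 0.76, 48 cells) and in yolk sac 0.38 (−0.30 to 0.83, 16 cells). Cells at 0 for both genes tie, depth is shared within a cell, and these values are descriptions without a test. Of the cells with a read of either gene of a pair, the share with both had a median over the pairs of 63.6% at E12.5 and 63.8% in AGM, against 71.4% at E14.5 and 75% in yolk sac. Reads of all 10 genes together were seen in 11 of 48 AGM and 6 of 16 yolk sac pre-HSCs, and in 5 and 6 of 16 liver HSCs at E12.5 and E14.5. The number of genes of the set with a read also went with the number of all genes detected, with a rho of 0.69 over 96 cells.

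Outside the set, the genes whose CPM followed its summed CPM most closely over all 96 cells, among 8914 genes with a read in at least 20% of cells, were Nusap1 with a rho of 0.85 and Cdca8 with 0.84. Nusap1 encodes a spindle-binding protein, and Cdca8 encodes borealin, another subunit of the chromosomal passenger complex. Cks2, Hmgb2, Cenpa, Prc1, Cdca3, Kif22, Fam64a and Cdk1 followed, down to 0.76, where the median over all genes was 0.09. Within AGM alone the first 10 were Cks2 at 0.84, Cdca8, Fam64a, Nusap1, Nuf2, Cks1b, Hmgb2, Prc1, Ccna2 and Kif23 at 0.73. The cells share depth and genes detected across all these values.

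The summed CPM of DNA replication genes did not follow that of the set from cell to cell. The 30 S-phase genes, which include the MCM helicase subunits and nucleotide synthesis enzymes, had a summed CPM whose rho with the summed CPM of the 10 genes was −0.01 over 96 cells. Other G2 and mitosis genes had a rho of 0.92 on the same cells. Medians of the S-phase sum in cells with and without most mitotic genes were 6302.5 and 5215 CPM in AGM, 8401.5 and 6784 in yolk sac, 3948 and 3100.3 at E12.5, and 11229 and 7536.5 at E14.5, and the ranges overlap in all 4 groups. Medians of the other G2 and mitosis genes, in the same order, were 9163.5 and 3142 CPM in AGM, with overlapping ranges of 3130 to 18087 and 1568 to 6101 CPM. In yolk sac they were 9871 and 3940 CPM, and the ranges of 3695 to 14894 and 2754 to 5126 CPM overlap as well. They were 16413 and 2368 CPM at E12.5, where the ranges of 11041 to 20185 and 39.96 to 3947 CPM do not overlap. At E14.5 the ranges were 6097 to 27578 and 2255 to 5687 CPM, also without overlap. E12.5 cell 14 had the highest S-phase sum of its group, 11710 CPM with reads of 26 of 30 genes, and 1 read of the mitotic set. AGM cell 46 had 6570 CPM and also 1 read of the set. By detection, the median number of S-phase genes with a read was higher in cells with most mitotic genes. It was 27 against 20 in AGM and 29 against 19 in yolk sac. At E12.5 it was 19 against 15, and at E14.5 it was 23 against 22. Those cells also had more genes detected of all kinds, as given above.

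**Figure D5:**
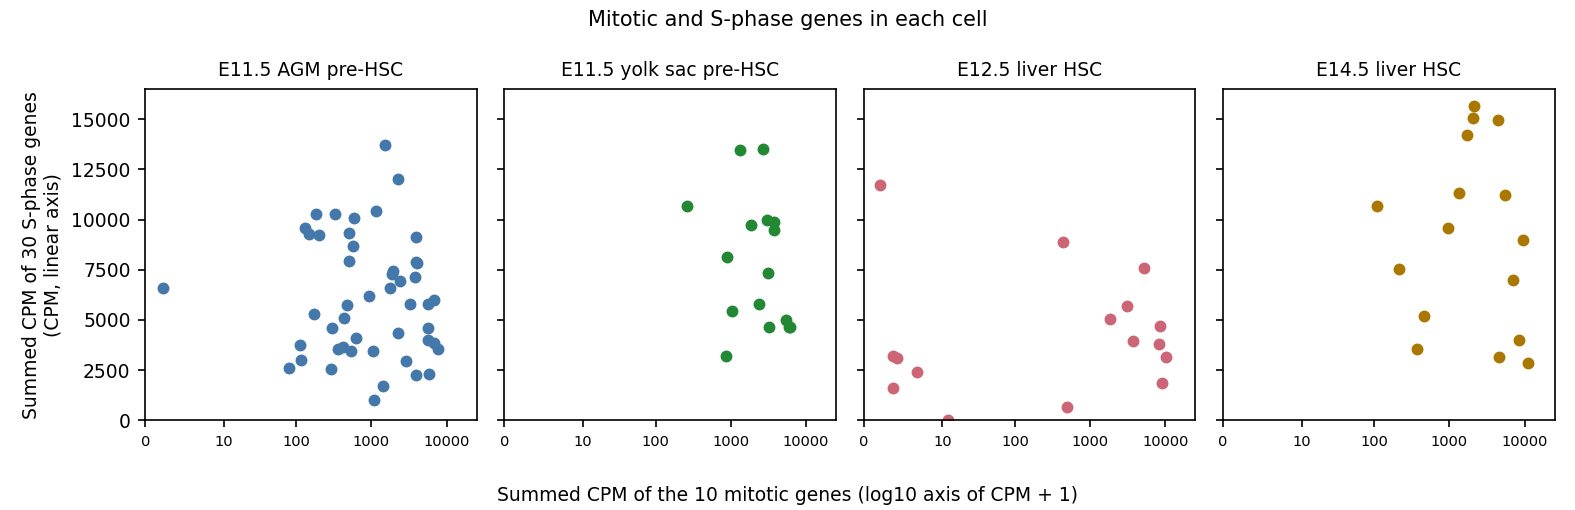
Summed CPM of 30 S-phase genes (y axis, linear) against summed CPM of the 10 mitotic genes (x axis, log10 of CPM + 1), 1 point per cell and 1 panel per group. Points do not fall along a line in any panel, and E12.5 cell 14 lies at the top left of its panel with 11710 CPM of S-phase genes and 0.661 CPM of mitotic genes.

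As a list, the S-phase genes had 1 of 30 higher at E12.5 than in AGM, beside 40.5% of all genes. At least 2-fold lower were 6, or 20%, beside 26% of all genes, and the median log2 ratio was −0.53 beside −0.20. Rrm2, a subunit of ribonucleotide reductase, had 26.3 CPM against 129 CPM, or 16.7 CPM without E12.5 cell 1, and Mcm3 138 against 416 CPM. Ccne2, which encodes cyclin E2, had 5 reads at E12.5, all in cell 1. From E12.5 to E14.5 all 30 S-phase genes were higher, beside 40.8% of all genes. At least 2-fold higher were 17, beside 18.7% of all genes, with a median of 1.05 beside 0. Rrm2 then had 475 CPM, and 357 CPM without E14.5 cell 8. In yolk sac all 30 were higher than in AGM, beside 38.2% of all genes, and none by 2-fold, beside 8.61%. Their median was 0.33 beside −0.20. The mitotic set and the S-phase list thus had medians of opposite sign for E12.5 over AGM, 1.16 and −0.53.

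Other parts of the mitotic machinery were read from lists by role. Of 28 spindle and kinetochore genes, 25 were higher at E12.5 than in AGM, beside 40.5% of all genes. At least 2-fold higher were 9, or 32.1%, beside 15.6%, and 1 was at least 2-fold lower, beside 26%, with a median of 0.84 beside −0.20. Nusap1 had 248 CPM against 68.1 CPM, and Dlgap5, which bundles spindle microtubules, 150 against 42.1 CPM. At E14.5 the list had 9 genes at least 2-fold above AGM, beside 15.3% of all genes, and none below, beside 25.3%, with a median of 0.67 beside −0.23. Gtse1, which restrains p53 in G2, had 127 CPM against 21.9 CPM, or 86.0 CPM without E14.5 cell 9. Between the liver stages 4 were at least 2-fold higher and 4 lower, 14.3% each, near the 18.7% and 18.2% of all genes. Of 11 measured kinases and cyclins of mitotic entry, 2 were at least 2-fold higher at E12.5 than in AGM, or 18.2%, near the 15.6% of all genes, and 4 at E14.5, or 36.4% beside 15.3%, with medians of 0.66 and 0.69. Wee1, the kinase that holds CDK1 inactive, was among both, at 33.4 and 62.9 CPM against 8.78 CPM, but 71.4% of its E12.5 reads came from cell 3 and the value without it was 10.6 CPM. Ccna2, which encodes cyclin A2, had 84.6 CPM in AGM against 183.5 CPM in yolk sac, with 148.3 CPM and 271 CPM at the liver stages.

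Checkpoint and anaphase-promoting complex genes differed less as a list. Of 14 genes, 1 was at least 2-fold higher and 1 lower at E12.5 than in AGM, or 7.14% each beside 15.6% and 26%, with a median of 0.04 beside −0.20. The higher one was Bub1b, the checkpoint partner of Bub1, at 133 against 53.5 CPM, and the lower one was Espl1, which encodes separase, at 2.05 CPM from 39 reads against 12.99 CPM. Without the richest cell of each group, Espl1 had 1.05 CPM at E12.5 and 8.53 CPM in AGM. At E14.5 Espl1 had 29.2 CPM, or 18.2 CPM without cell 7, and Bub1b had 39.4 CPM, or 20.8 CPM without cell 8. Fzr1, the other activator of the anaphase-promoting complex beside Cdc20, had 286 CPM in yolk sac against 126 CPM in AGM, and 207.4 CPM without yolk sac cell 13. Of 13 measured passenger, cohesin and condensin genes, 3 were at least 2-fold higher and 1 lower at E12.5 than in AGM, or 23.1% and 7.69% beside 15.6% and 26%, with a median of 0.33. Incenp, the scaffold that holds Aurora B and survivin, was at 49.4 CPM in AGM against 100.6 CPM in yolk sac, with 117 CPM and 125 CPM at the liver stages.

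The 10 genes of the known G2 and mitosis regulators, Foxm1, Mybl2, E2f4 and subunits of MuvB and NF-Y, had medians near those of all genes for E12.5 over AGM, −0.07 beside −0.20, with 2 of 10 at least 2-fold higher beside 15.6%, and 1 lower beside 26%. Lin37, a MuvB subunit, was higher with 187.2 against 51.0 CPM, and Nfya, a subunit of the CCAAT-binding factor, was lower with 2.15 CPM from 41 reads against 7.93 CPM, and 1.06 CPM without E12.5 cell 5. At E14.5 the list had a median of 0.29 beside −0.23, with 3 of 10 genes at least 2-fold higher beside 15.3%. Foxm1, a transcription factor of the G2 programme, had 87.4 CPM at E14.5, 23.9 CPM at E12.5 and 17.1 CPM in AGM. These values were 58.3, 10.1 and 7.30 CPM without the richest cell of each, E14.5 cell 9, E12.5 cell 3 and AGM cell 27.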

How the data were processed

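Each cell was sorted into its own well, with cDNA from a SMART-Seq kit and transposome-tagged libraries, per the labels. The deposited table holds unnormalised whole-number read counts for 96 cells. The submitters' processing notes name FastQC, Trimmomatic 0.36, STAR, HTSeq and build mm10, and the annotation and options are not given in the sources used here. No molecular identifiers are named, so counts are reads. The counts of no 2 cells were identical (0 pairs). Rows sharing a symbol (113 of 19949) were summed, and 0 columns were unmapped. Cells needed 1000 genes detected, which removed none, and no doublet caller was run.

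CPM is reads per 1e6 counted reads of a cell, or of a group's summed cells when pooled. Ratios are log2 of pooled CPM after adding 1 CPM, which understates low genes. Calls of 2-fold use genes with 30 reads over all cells, which all 10 genes passed. Shares, also those of 0, have exact Clopper-Pearson 95% intervals, and pooled CPM has exact Poisson 95% intervals. PCR reads are not independent molecules, so these cover counting error only. Exon lengths come from GENCODE M21, where all 10 genes matched by identifier. They join all annotated exons of a gene and can exceed the transcripts expressed, so orders of genes per kilobase are approximate.

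The genes, lists and tests were chosen with earlier results of these data known. From each list, up to 4 genes per comparison with the largest ratio were eligible to be named, given 30 reads and a read in 20% of cells, and 10 genes by likeness. Values were computed in Python 3.11.15 with scipy 1.17.1, and TMM factors with edgeR 4.0.16. Scripts were tested on simulated data.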

Additional observations from a re-analysis of the deposited data

How the results depend on the processing

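No paired analysis was possible because the replicate numbers only name wells, no animal or litter is given, and no result comes from a test. The share of cells with most genes stayed inside its counting interval under every alternative, and its range when 1 cell was left out was 61.7% to 63.8% in AGM, 86.7% to 93.3% in yolk sac, 40% to 46.7% at E12.5 and 66.7% to 73.3% at E14.5. The summed CPM in those cells left its narrow interval more often. Thinned to 200000 reads it was 3181, 3487.5, 6839 and 5314.5 CPM in AGM, yolk sac, E12.5 and E14.5. At 600000 reads per cell, with 5 AGM cells and 1 E12.5 cell too shallow to enter, it was 3391.5 CPM in AGM and 6889 CPM at E12.5.
With 10 CPM required it was 3345, 3640 and 7844 CPM in AGM, yolk sac and E12.5, and with at least 8 genes 3544, 3452 and 6105.5 CPM in AGM, yolk sac and E14.5. At 600000 reads yolk sac had 3131.5 CPM. Without cells over 9000 genes, an alternative chosen after seeing the data, it was 3307.5 CPM in AGM and 7708 CPM at E12.5, and without globin-rich cells 5063 CPM at E14.5. With single cells left out it ran from 2908 to 3229 CPM, 2837 to 3333, 6875 to 8053 and 4661 to 5665 CPM in the order above.

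The median log2 ratio of the 10 genes for yolk sac over AGM was 0.61 with median-of-ratios scaling and 0.61 with TMM, and 0.45 to 0.64 with single cells left out. For E12.5 over AGM it was 0.84 from the mean of the cells' CPM, 0.82 thinned and 1.11 without cells over 9000 genes, and 0.81 to 1.29 with single cells left out. For E14.5 over AGM single cells gave 0.67 to 1.07. For E14.5 over E12.5 it was 0.47 from the mean of the cells' CPM, 0.46 thinned, −0.00365 without globin-rich cells, which is the opposite sign, and −0.20 to 0.33 with single cells left out. The cause was not tested. Of 320 ratios of single genes under these alternatives, 308 kept their sign and 12 did not. Depth limits the shares: thinning to 200000 reads lowered them at E12.5 by 18.75 percentage points for Ccnb1, Cdc20 and Top2a, and in AGM by up to 10.4 points, for Ube2c. The number of the 10 genes with a lower share was also counted thinned and at 10 CPM, after seeing the data. It was 1 and 0 for yolk sac over AGM, beside 39.2% and 40.5% of all genes. For E12.5 over AGM it was 10 and 10, beside 72.4% and 71.3%. For E14.5 over AGM it was 3 and 1, beside 60.9% and 58.6%. For E14.5 over E12.5 it was 0 and 0, beside 25.8% and 25.9%.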
